A study of Mus musculus with 15 samples.

Results

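Aldo-keto reductases are cytosolic enzymes that use NADPH to reduce aldehydes and ketones to alcohols, and 8 genes of the family listed by symbol were followed across 15 arrays of NIH3T3, a mouse fibroblast line that grows without limit in culture. Of these 8 genes, 7 were named on the arrays (of 18193 genes with a probe set of their own), through 12 probe sets, and Akr1b7 was not analysed here. Members were chosen by symbol, and the family itself was chosen from values of these same arrays. The values of Akr1c14 are therefore given as a description with no p-value, and for the other members the adjusted p-values place each probe set among all those tested and do not count as independent evidence.

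All cells had been transduced with the retroviral vector pBabe-puro, so that puromycin resistance and the vector were common to every group. The vector was empty or carried a gene of the Runx family of transcription factors. The groups were empty vector cells without 4-OHT (4-hydroxytamoxifen), empty vector cells with 4-OHT, cells with an inducible human RUNX1 (RUNX1-ER) without and with 4-OHT, and lines with constitutive mouse Runx1, mouse Runx2 or mouse Runx3, each with 2 arrays, as well as 1 array of a line with constitutive human RUNX1. Cells stood for 7 days until confluent and then received ethanol at 0.2%, with or without 4-OHT at the labelled 0.1 mM, for 24 h. Which of the treatments each constitutive line received is not given in the sources used here, nor whether a line was a pool or 1 clone. The titles call the arrays of a group biological replicates, but whether separate cultures lie behind them is not stated, so the p-values rest on a spread between arrays that may be technical. In bulk RNA, fewer cells with a transcript and less of it in each cell cannot be told apart.

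The medians of the arrays lay between 3.69 and 3.75 log2 units over 45037 probe sets, which the normalization brings close together. Precision is limited by how few arrays there are. Of the 14 arrays with a replicate, 10 correlated best with it. All 9 fibroblast markers (collagens, Fn1, Vim, Pdgfra, Pdgfrb, Thy1 and S100a4) read between 7.20 and 13.35 on every array. The 3 hepatocyte markers, of a tissue rich in these enzymes, read between 3.17 and 5.63, the 3 steroidogenic markers (Star, Cyp11a1 and Cyp17a1) between 3.06 and 4.49, the 3 leukocyte markers between 2.99 and 4.06, the 3 endothelial markers between 3.14 and 3.85, the 2 adipocyte markers between 2.86 and 3.89, and the 4 epithelial markers between 2.81 and 6.94, the top value being that of Krt8.

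The members have different substrates. Akr1c14 is a hydroxysteroid dehydrogenase that reduces dihydrotestosterone and dihydroprogesterone, Akr1c18 inactivates progesterone at the end of pregnancy, and Akr1c12 and Akr1c13 are close relatives of both. Akr1b8, an aldose reductase-like enzyme, was first found as a protein induced by fibroblast growth factor in fibroblasts, Akr1a1 is the aldehyde reductase of the ascorbate pathway, and Akr1e1 reduces anhydrofructose. In mice the Akr1c genes and Akr1e1 lie side by side. In the RefSeq annotation of GRCm38.p6 they lie on chromosome 13, with Akr1c14 at 4048991 to 4090560, Akr1c18 at 4132615 to 4150646, Akr1c13 at 4191168 to 4205604, Akr1c12 at 4268172 to 4279399 and Akr1e1 at 4591123 to 4609164, and 4 further Akr1c genes stand between these. Akr1b8 lies on chromosome 6 at 34354146 to 34368461 and Akr1a1 on chromosome 4 at 116636510 to 116651674.

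The 250 bases before the start of Akr1c14 (chr13:4059341-4059590, + strand, RefSeq, GRCm38.p6) are shown because this gene carries the differences described next. The start is that of a transcript within the annotated gene.
Akr1c14: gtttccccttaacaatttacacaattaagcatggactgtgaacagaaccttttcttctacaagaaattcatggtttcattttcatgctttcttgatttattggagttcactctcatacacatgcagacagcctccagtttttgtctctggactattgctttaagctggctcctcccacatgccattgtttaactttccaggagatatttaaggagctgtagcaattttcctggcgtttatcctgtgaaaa
The window was searched on both strands for TGTGGT and TGCGGT, the letters that Runx proteins bind, and for TGACNNNGC, the core of the antioxidant response element; TGTGGT and TGCGGT differ in 1 letter, so no stretch matches both. None was found, so the sequence has no capitals, and this says only that these letters are not in this window. The windows of the other 6 measured members held none either. Of 32851 windows of the same length before gene starts, 18.6% held TGTGGT or TGCGGT and 10.2% held TGACNNNGC.

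Akr1c14 stood at 2 separate levels, high with Runx2, Runx3, human RUNX1 and induced RUNX1-ER and low in the other 4 groups, the mouse Runx1 line included. It read 4.26 and 4.20 log2 units in the arrays of vector cells, and 4.40 and 4.09 in those of vector cells with 4-OHT. In the Runx2 line it read 7.56 and 8.05, and in the Runx3 line 7.50 and 7.02. All 4 arrays of these lines lay above all 4 of the empty vector. The Runx1 line, in contrast, gave 4.64 and 4.00, a spread that took in all 4 empty vector arrays.

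RUNX1-ER cells showed the same separation within 1 line. Uninduced cells read 4.35 and 4.46 for Akr1c14, and cells induced with 4-OHT read 7.22 and 7.44. The only array with constitutive human RUNX1 read 7.23, within the range of the Runx3 arrays and of the induced RUNX1-ER arrays. The high groups were thus Runx2, Runx3, induced RUNX1-ER and human RUNX1, and the lowest of their 7 arrays exceeded the highest of the other 8 by 2.38 log2 units.

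**Figure D1:**
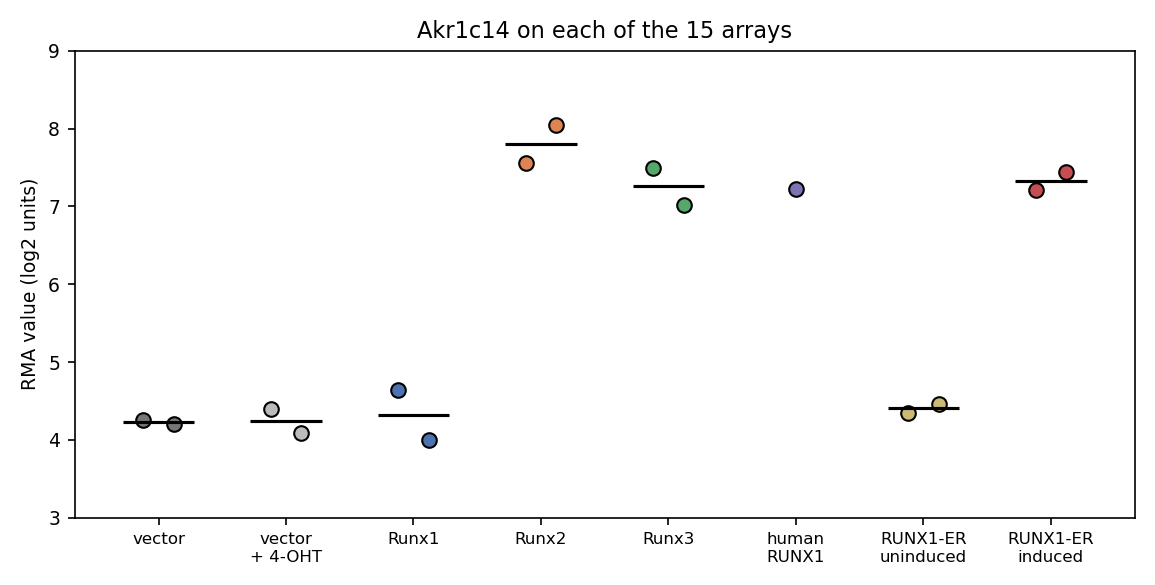
RMA value of Akr1c14 (log2 units) on each of the 15 arrays by group, with a point per array and a line at the mean of the 2 arrays of a group; the human RUNX1 line has 1 array and no line. The 7 arrays of the Runx2, Runx3, human RUNX1 and induced RUNX1-ER groups lie between 7.02 and 8.05, and the other 8 between 4.00 and 4.64.

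By group means Akr1c14 ran in the order Runx2 (7.80 ± 0.35, SD, n = 2), induced RUNX1-ER (7.33 ± 0.16), Runx3 (7.26 ± 0.34), human RUNX1 (7.23, 1 array), uninduced RUNX1-ER (4.41 ± 0.08), Runx1 (4.32 ± 0.46), vector with 4-OHT (4.25 ± 0.22) and vector (4.23 ± 0.04). The Runx2 arrays lay above those of the next group without overlap, and from there down to human RUNX1 the arrays of neighbouring groups overlapped. In the lower 4 groups all neighbours overlapped. Against vector cells the log2 difference was 3.57 for Runx2 (SE 0.21, 11.9-fold), 3.03 for Runx3 (SE 0.21, 8.18-fold) and 0.09 for Runx1 (95% interval −0.37 to 0.55). RMA can shrink differences that start at the dim end of an array, and how far it did so here was not tested.

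Set against the Runx1 line, the value of Akr1c14 was 3.48 higher with Runx2 (SE 0.21, 11.2-fold) and 2.94 higher with Runx3 (SE 0.21, 7.69-fold). The Runx3 and Runx2 lines differed by −0.54 (Runx3 minus Runx2, SE 0.21), which did not pass the threshold of the limma fit although the arrays did not overlap. These comparisons share arrays with those against vector cells and are given side by side, not as further evidence.

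The empty vector arrays with 4-OHT serve as the control for the drug itself. Akr1c14 differed by 2.92 (SE 0.21, 7.57-fold) between induced and uninduced RUNX1-ER cells. In vector cells the difference with 4-OHT was 0.02 (95% interval −0.44 to 0.48). The difference between these effects was 2.90 (SE 0.30, 95% interval 2.25 to 3.56). Induced RUNX1-ER cells also exceeded vector cells with 4-OHT by 3.08 (SE 0.21, 8.45-fold), and uninduced RUNX1-ER cells differed from vector cells by 0.18 (95% interval −0.29 to 0.64).

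Human RUNX1 and mouse Runx1 stood on different sides of this separation. The human RUNX1 array exceeded the vector mean for Akr1c14 by 3.0 log2 units (8.0-fold) and the mean of the mouse Runx1 line by 2.91 (7.51-fold). With 1 array there is no test of this. Of all probe sets, 0.266% were at least 2-fold higher on that array than in vector cells and 0.113% than in the Runx1 line, and Akr1c14 was the 1 member probe set among them in each case; the other 11 differed from the vector mean by −0.31 to 0.32. Of 6 mouse Runx1 probe sets, 2 were higher in the mouse Runx1 line than in vector cells (9.21 against 4.65 and 7.23 against 4.29). The other 4 read lower there, at 4.38 against 4.88, 4.14 against 4.82, 4.11 against 4.14 and 4.04 against 4.23. The probe set at 9.21 in the mouse line read 4.69 on the human RUNX1 array. In uninduced and induced RUNX1-ER cells, which also carry human RUNX1, it read 4.78 and 4.67. How well this mouse probe set detects human RUNX1 was not tested. Whether the treatment of the mouse line matched that of the human line is not stated.

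Counts of member probe sets past the threshold are given beside the share of all probe sets. With a threshold of 0.05 on limma p-values adjusted over all 45037 probe sets by the Benjamini-Hochberg method, 1 of 12 member probe sets passed for Runx2 against vector (1.37% of all probe sets passed), for Runx3 against vector (5.1%), for Runx2 against Runx1 (0.77%) and for Runx3 against Runx1 (3.58%). The same 1 of 12 passed for induced against uninduced RUNX1-ER (0.95%), for induction beyond the effect of 4-OHT in vector cells (0.329%) and for induced RUNX1-ER against vector with 4-OHT (1.95%). It was Akr1c14 each time, higher in the group named first. None of 12 passed for Runx1 against vector (0.928%), Runx3 against Runx2 (1.79%), uninduced RUNX1-ER against vector (0.00888%) or 4-OHT in vector cells (0%). In these comparisons 1, 4, 2 and 0 member probe sets had an unadjusted p under 0.05, beside 3356, 5209, 2985 and 2773 of all 45037. Since the family was picked with these comparisons known, nothing is read from the counts.

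**Figure D2:**
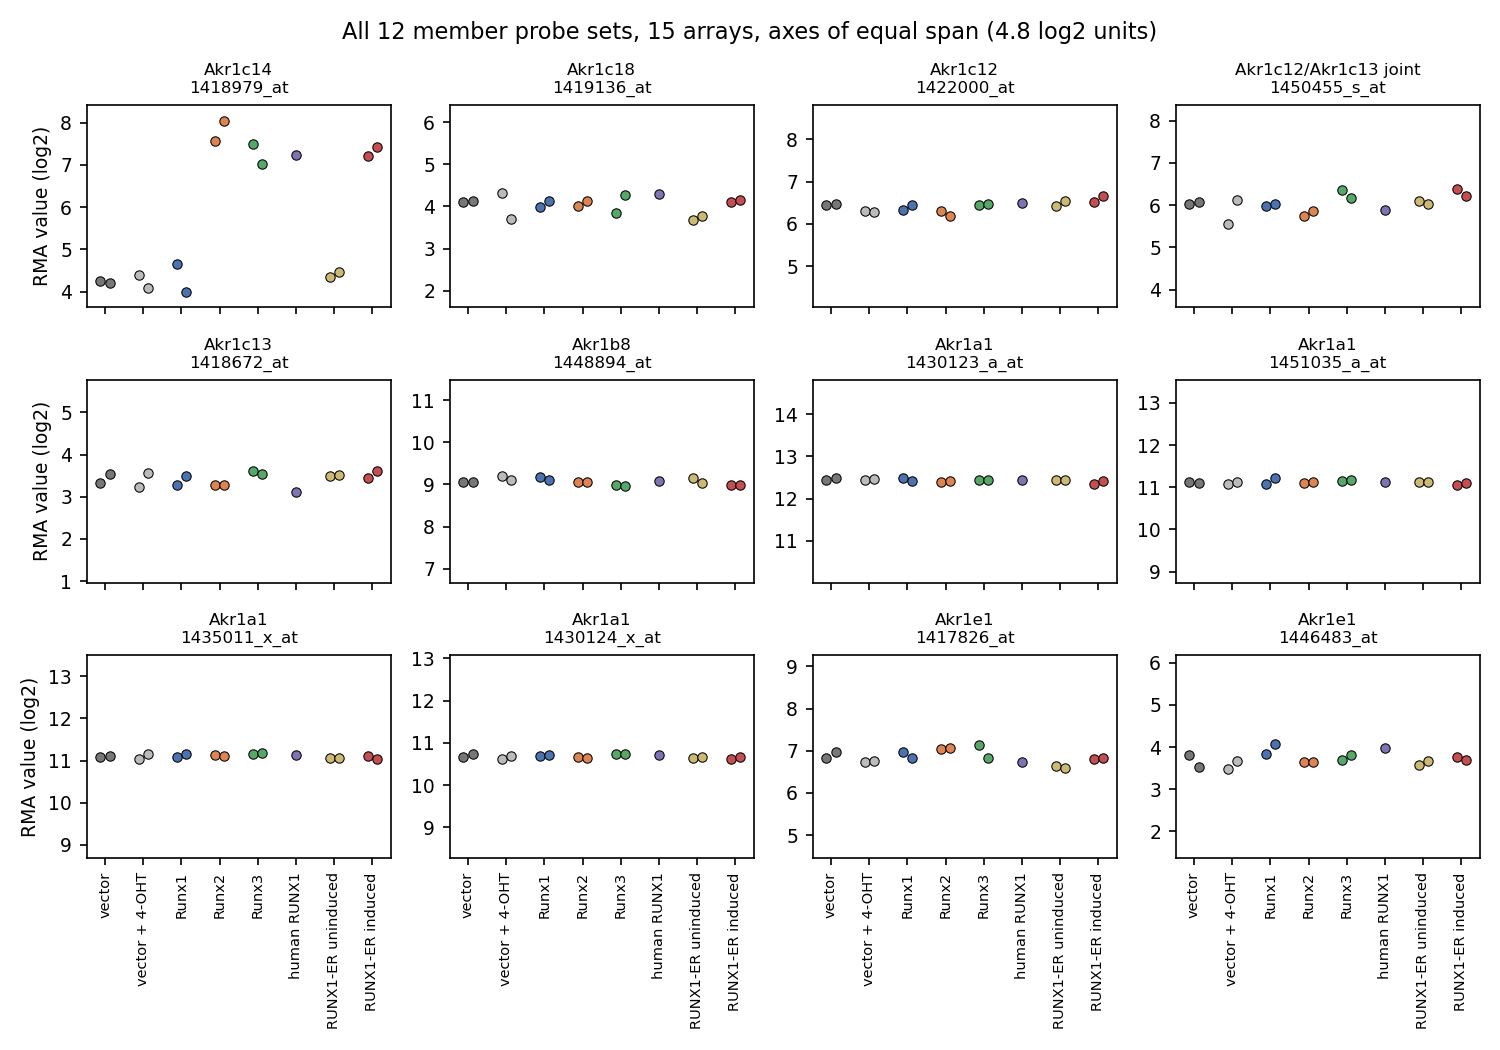
RMA values (log2) of all 12 member probe sets on the 15 arrays by group, 1 point per array, with every vertical axis spanning 4.8 log2 units so that spreads can be compared by eye. Akr1c14 covers 4.05 log2 units between its lowest and highest array, and no other member probe set covers more than 0.83.

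Akr1c18, the progesterone-inactivating neighbour of Akr1c14, stayed at the low end in every group, with 3.69, 4.11 and 4.33 as its lowest, median and highest array. Its lowest group mean was that of uninduced RUNX1-ER (3.69 and 3.77), against 4.10 and 4.16 after induction, and the arrays of vector with 4-OHT, at 4.33 and 3.70, reached the same low level on 1 array. That difference of 0.40 (SE 0.17) did not pass the threshold (limma adjusted p = 0.501), and uninduced cells stood 0.39 below vector cells (adjusted p = 0.743). In the Runx2 and Runx3 lines, where Akr1c14 was high, Akr1c18 differed from vector cells by −0.05 (95% interval −0.42 to 0.32) and −0.06 (−0.43 to 0.32).

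Akr1c12 and Akr1c13 are near copies, and 1 probe set is annotated to both, so its signal cannot be assigned to either gene and the probe sets of the pair may share transcripts. The windows before their starts are shown because they display how alike the pair is. Capitals mark bases that differ from the other gene or have no partner in it, 15 in each, and 235 of 246 aligned bases were identical (95.5%). Both come from RefSeq, GRCm38.p6, with Akr1c12 at chr13:4279400-4279649 on the − strand and Akr1c13 at chr13:4190937-4191186 on the + strand, where the window runs past the annotated start of the gene because the start used is that of a transcript within it.
Akr1c12: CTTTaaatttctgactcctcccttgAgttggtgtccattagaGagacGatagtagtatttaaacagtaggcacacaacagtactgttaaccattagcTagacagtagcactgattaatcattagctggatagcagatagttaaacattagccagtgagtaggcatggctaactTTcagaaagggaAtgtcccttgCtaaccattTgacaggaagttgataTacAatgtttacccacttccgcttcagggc
Akr1c13: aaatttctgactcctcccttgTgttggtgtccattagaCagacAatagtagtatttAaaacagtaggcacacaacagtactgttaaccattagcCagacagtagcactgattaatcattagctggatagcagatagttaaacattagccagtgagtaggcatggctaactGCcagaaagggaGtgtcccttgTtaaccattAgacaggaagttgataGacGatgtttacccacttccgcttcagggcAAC
The probe set of Akr1c12 had 6.18, 6.45 and 6.65 as its lowest, median and highest array, that of Akr1c13 had 3.12, 3.48 and 3.62, and the joint one had 5.56, 6.03 and 6.39.

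The Runx2 line had the lowest group mean of Akr1c12 and of the joint probe set, and for Akr1c13 only the human RUNX1 group had a lower one. The joint probe set read 5.74 and 5.85 in the Runx2 line and 6.35 and 6.17 in the Runx3 line, a difference of 0.46 (SE 0.15, limma adjusted p = 0.177). Akr1c12 read 6.30 and 6.18 against 6.45 and 6.47, a difference of 0.22 (SE 0.09, adjusted p = 0.389). Akr1c13 read 3.28 and 3.29 against 3.62 and 3.55, a difference of 0.30 (SE 0.12, adjusted p = 0.345). None of the 3 passed the threshold. The arrays of the 2 lines did not overlap on any of them. How often this holds over all probe sets was not counted, so nothing is read from it.

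Induced RUNX1-ER cells had the highest group mean of Akr1c12 (6.59 ± 0.10, SD, n = 2) and of the joint probe set (6.30 ± 0.12). Against vector cells with 4-OHT these stood higher by 0.30 (SE 0.09, limma adjusted p = 0.158) and 0.46 (SE 0.15, adjusted p = 0.154). Neither passed among all probe sets. Akr1c12 passed when only probe sets with a mean above 5 were tested (adjusted p = 0.0364), and the joint one, whose vector arrays with 4-OHT read 5.56 and 6.12, passed without vector with 4-OHT replicate 2 (0.74, adjusted p = 0.0138).

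Akr1b8 was steady, at 8.95, 9.07 and 9.20 as its lowest, median and highest array. It differed from vector cells by 0.09 in the Runx1 line, 0.00 in the Runx2 line and −0.09 in the Runx3 line (SE 0.09 each), and by −0.10 on induction of RUNX1-ER. The 95% intervals of these 4 differences stayed between −0.28 and 0.28, and none passed.

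Akr1a1, measured by 4 probe sets, varied least. Its probe sets spanned 0.14 to 0.15 log2 units from the lowest to the highest of 15 arrays, one from 12.34 to 12.48, the next ones from 11.07 to 11.22 and from 11.03 to 11.17, and the last from 10.61 to 10.75. Across Runx1, Runx2 and Runx3 against vector and RUNX1-ER induction, its differences ran from −0.07 to 0.06.

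The probe sets of Akr1e1 had 6.59, 6.84 and 7.14 and 3.47, 3.69 and 4.08 as their lowest, median and highest array. The brighter one was lowest in uninduced RUNX1-ER cells, at 6.64 and 6.59, against 6.84 and 6.98 in vector cells (difference −0.29, SE 0.11, limma adjusted p = 0.661). The dimmer one was higher in the Runx1 line, at 3.82 and 4.08, than in vector cells, at 3.80 and 3.52 (difference 0.29, SE 0.12, adjusted p = 0.569), while the brighter one differed there by 0.00.

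Outside Akr1c14, 121 pairs of a member probe set and a comparison were formed, 13 had an unadjusted p under 0.05 and 0 passed the adjusted threshold in limma. Of all 45037 probe sets, 2773 to 6486 had an unadjusted p under 0.05, depending on the comparison, and 0% to 5.1% passed. Nothing is read from the 13. For Runx1, Runx2 and Runx3 against vector and for RUNX1-ER induction, the 95% intervals of all 11 other probe sets stayed between −0.57 and 0.77. On the dim probe sets, those of Akr1c13 and Akr1c18 and the dimmer one of Akr1e1, a larger change in RNA can go unseen. The interval that reached furthest in any comparison ended at 1.02, for Akr1c18 and induction beyond the effect of 4-OHT in vector cells.

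**Figure D3:**
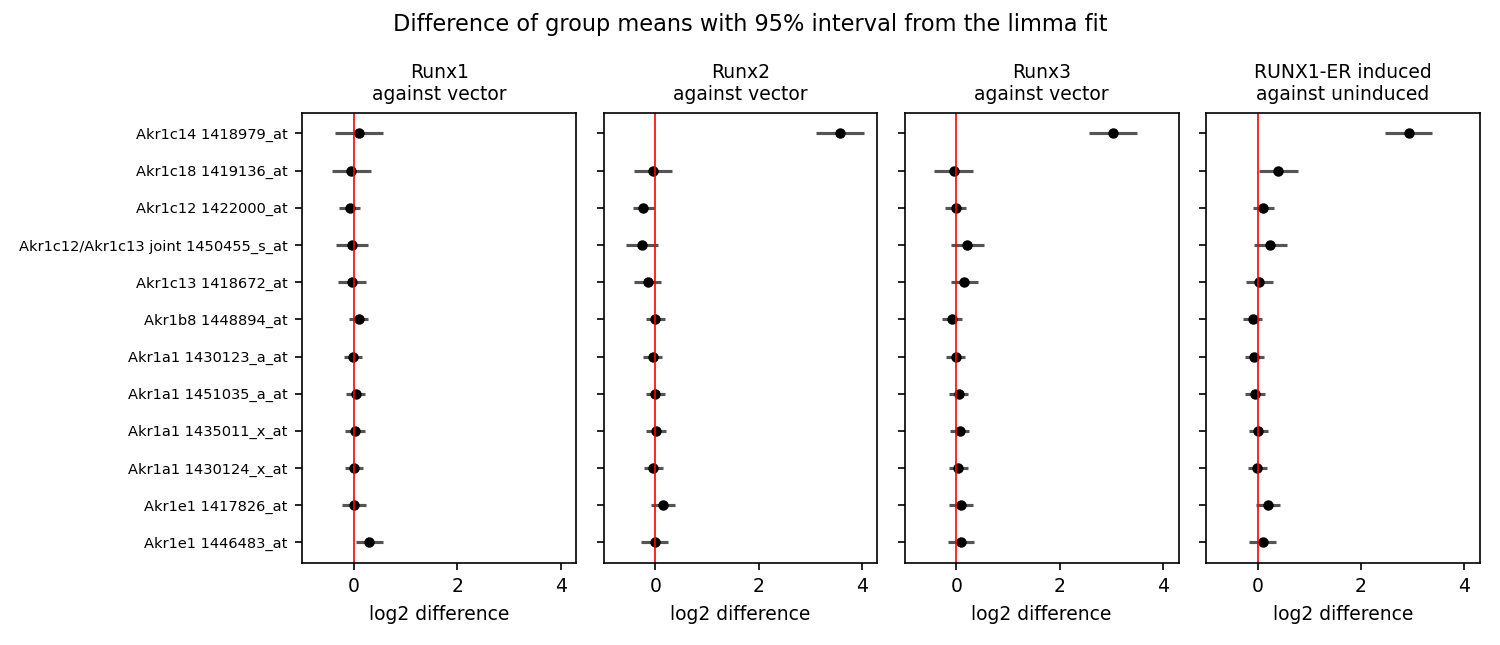
Difference of group means (log2) with its 95% interval from the limma fit for the 12 member probe sets in 4 comparisons. Akr1c14 lies at 3.57, 3.03 and 2.92 for Runx2, Runx3 and RUNX1-ER induction and at 0.09 for Runx1, and all other probe sets lie between −0.26 and 0.40.

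The genes around Akr1c14 were then examined, a choice made after its values were seen. Within 1 Mb on either side, 17 other genes, family members among them, had a probe set of their own. None of the 17 passed in limma for Runx2 against vector (changes from −0.23 to 0.24), for Runx3 against vector (−0.25 to 0.36) or for RUNX1-ER induction (−0.33 to 0.54), and 2, 2 and 3 had an unadjusted p under 0.05. Over all genes 2.13%, 7.83% and 1.41% passed, and of all 45037 probe sets 4453, 6486 and 4090 had an unadjusted p under 0.05. Akr1c6, Akr1c19, Akr1c20 and Akr1c21, the Akr1c genes that are no members, differed from vector cells by −0.08, −0.06, 0.05 and 0.04 in the Runx2 line and by 0.07, 0.01, 0.05 and 0.21 in the Runx3 line. None of these 4 genes passed, and each was dim, with a mean between 3.08 and 3.76 over all arrays, where a change can go unseen.

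**Figure D4:**
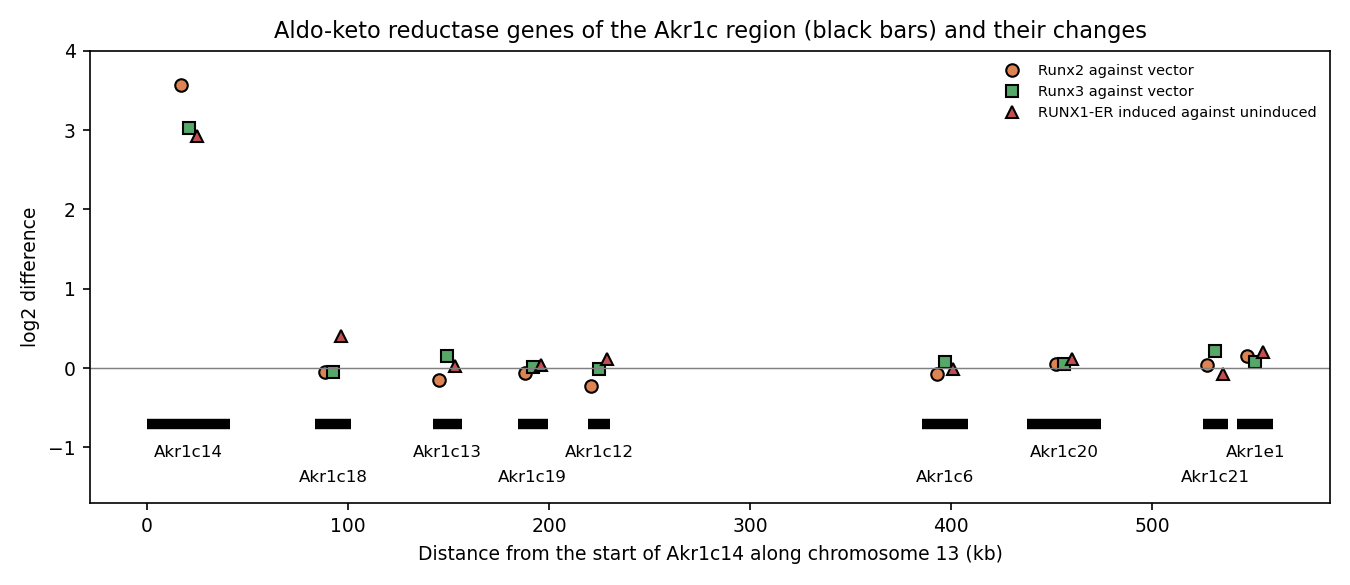
Aldo-keto reductase genes on chromosome 13 drawn to scale as black bars by distance from the start of Akr1c14 (kb), and above each the log2 difference (vertical axis) for Runx2 and Runx3 against vector and for RUNX1-ER induction. The 3 points of Akr1c14 lie between 2.92 and 3.57, and those of its neighbours between −0.23 and 0.40.

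Other families and pathways that act on the same substrates were described by counts from lists written with the earlier results known. Of the 11 other measured aldo-keto reductases and potassium channel beta subunits of the superfamily, 0 passed in any of the 11 comparisons in limma. Over all genes 0% to 7.83% passed, depending on the comparison, so with 11 genes a count of 0 is not read as a lack of change. For Runx1, Runx2 and Runx3 against vector, 1, 0 and 2 of the 11 had an unadjusted p under 0.05. Their medians there were −0.00, −0.05 and 0.01, beside −0.01, −0.01 and 0.00 over all genes. Of 28 other carbonyl and aldehyde enzymes, 0 passed for Runx1 in limma (2 at an unadjusted p under 0.05; 1.42% of all genes passed), 1 fell for Runx2 (2.13%), and 1 rose and 1 fell for Runx3 (7.83%). The one that fell was Cbr2, a carbonyl reductase, which fell by 0.46 with Runx2 (SE 0.09, limma adjusted p = 0.0212) and fell by 0.81 with Runx3 (SE 0.09, adjusted p = 8.22e-05). The Runx2 call was lost without any 1 of vector replicates 1 and 2 and Runx2 replicates 1 and 2 (adjusted p = 0.261, 0.0800, 0.152 and 0.0648). Dhrs3, which reduces retinal, rose by 0.56 in the Runx3 line (limma adjusted p = 0.0352). It was dim, at 3.67 in vector cells and 4.22 in the Runx3 line. The call did not hold without vector replicate 1 or 2 or Runx3 replicate 2, where the rise was 0.46, 0.65 and 0.41.

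Nrf2, encoded by Nfe2l2, is the factor that switches on several aldo-keto reductases and other detoxifying enzymes. Of 25 measured genes in a list of Nrf2, its inhibitor and its targets, 1 rose and 1 fell for Runx1 (1.42% of all genes passed), 1 rose for Runx2 (2.13%), and 1 rose and 5 fell for Runx3 (7.83%), with medians of −0.03, −0.05 and −0.03. Gsta4, a glutathione transferase for lipid aldehydes, rose from 9.57 ± 0.06 (log2, SD, n = 2) in vector cells to 10.63 ± 0.03 with Runx2 (limma adjusted p = 3.37e-05) and 10.84 ± 0.01 with Runx3 (adjusted p = 1.60e-06). In the Runx1 line it read 10.09 ± 0.09 (adjusted p = 0.0139), which did not hold without vector replicate 1 or 2 (adjusted p = 0.0785 and 0.184) or Runx1 replicate 2 (0.176). Nfe2l2 itself fell by 0.75 with Runx3 (SE 0.10, limma adjusted p = 0.000509), and the difference on its other probe set was 0.02. Gstm1, another glutathione transferase, fell by 0.81 with Runx3 (SE 0.10, limma adjusted p = 0.000176) and fell by 0.55 with Runx1 (adjusted p = 0.0159), the latter not without vector replicate 1 or 2 (0.0848 and 0.200) or Runx1 replicate 1 or 2 (0.147 and 0.0912), and 2 of its 3 other probe sets passed in each line.

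Of 19 measured genes of steroid metabolism and steroid receptors, 0 passed for Runx1 in limma (3 at an unadjusted p under 0.05; 1.42% of all genes passed), 1 fell for Runx2 (2.13%), and 1 rose and 2 fell for Runx3 (7.83%). Hsd3b7, an enzyme of bile acid synthesis, fell by 0.63 with Runx2 (SE 0.10, limma adjusted p = 0.00572) and fell by 1.71 with Runx3 (SE 0.10, adjusted p = 2.77e-07). The Runx2 call did not hold without vector replicate 1 (adjusted p = 0.105) or Runx2 replicate 1 (0.0557). In the Runx3 line Nr3c1, the glucocorticoid receptor, fell by 0.58 (adjusted p = 0.0179, and 0.183 and 0.141 without vector replicate 2 or Runx3 replicate 1), and 2 of its 5 other probe sets also passed. Hsd17b10, a mitochondrial dehydrogenase, rose by 0.52 (adjusted p = 0.00410, and 0.0658 without vector replicate 2), and its other probe set differed by 0.36 without passing (adjusted p = 0.117).

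Akr1b and Akr1c enzymes can make prostaglandin F, and of 6 measured genes of that route 1 fell for Runx1 (1.42% of all genes passed), 1 for Runx2 (2.13%) and 3 for Runx3 (7.83%). Ptgfr, its receptor, differed from vector cells by −1.95, −1.74 and −2.36 in the Runx1, Runx2 and Runx3 lines (SE 0.14, limma adjusted p = 5.79e-06, 1.48e-05 and 1.99e-07). Of its 4 other probe sets, 3, 2 and 4 passed, the smallest differences being −0.30, −0.05 and −0.57. Ptgs2, the inducible cyclooxygenase, fell by 2.15 with Runx3 (SE 0.24, limma adjusted p = 6.84e-05), and fell by 1.40 on its other probe set. Slco2a1, a prostaglandin carrier, fell by 0.62 there (adjusted p = 0.0461), which did not hold without vector replicate 1 or 2 (0.213 and 0.204) or Runx3 replicate 1 or 2 (0.0848 and 0.296), and its 3 other probe sets did not pass. For induction beyond the effect of 4-OHT, no gene of these 5 lists passed in limma (0.478% of all genes did). In the order of the lists above, 0, 7, 5, 3 and 1 had an unadjusted p under 0.05, beside 3871 of all 45037 probe sets.

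The genes whose group means were most like those of Akr1c14, among 703 genes with a range of at least 1 log2 unit, were Ccn5 (Pearson r = 0.98 over 8 groups), which encodes a secreted matricellular protein, Atp13a3 (r = 0.93), a polyamine transporter, and Cdc42ep1 (r = 0.93), an effector of the GTPase Cdc42. The groups fall into an upper and a lower cluster, and the genes were picked for their r. So r is a measure of likeness and carries no p. Ccn5 read 6.48, 5.91, 6.11 and 5.85 in the Runx2, Runx3, human RUNX1 and induced RUNX1-ER groups, against 4.42, 4.11, 4.56 and 4.03 in vector, vector with 4-OHT, Runx1 and uninduced RUNX1-ER. Cdc42ep1 differed from Akr1c14 in the Runx1 line, where it read 6.39 against 5.84 in vector cells.

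**Figure D5:**
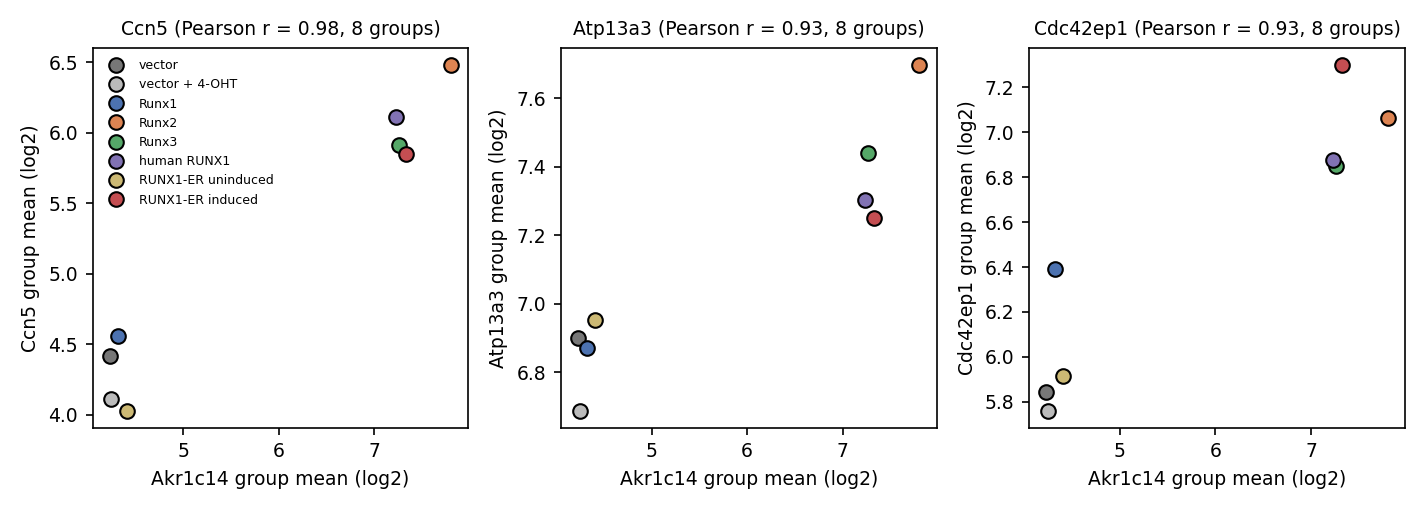
Group means (log2) of Ccn5, Atp13a3 and Cdc42ep1 (vertical axes) against those of Akr1c14 (horizontal axis), 1 point per group. In the Ccn5 panel the 4 upper groups lie between 5.85 and 6.48 and the 4 lower ones between 4.03 and 4.56.

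For the members with the next widest ranges of group means the likeness was weaker. Akr1c18 (range 0.56) was most like Zfp865 (r = 0.83), Slc29a1 (r = 0.80) and Mylip (r = 0.78). The joint probe set of Akr1c12 and Akr1c13 (range 0.51) was most like Dctd (r = 0.91), Ung (r = 0.89) and Cdca7 (r = 0.88), an enzyme of thymidylate supply, a DNA glycosylase that removes uracil and a gene of dividing cells. These genes were picked as the closest of 703 over 8 group means, so no shared role is read from them.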

How the data were processed

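The data were 1 table with a column of log2 values for each of 15 Affymetrix arrays. Per the labels' protocols, raw data came from GCOS and the authors used RMA (Bioconductor's affy, run inside FunAlyse), which gave the deposited log2 value of each probe set; the sources used here name no versions. RMA gives the probe intensities of all arrays the same distribution, so a shift of all transcripts together is lost. Depth does not apply to arrays, and no detection calls were used here.

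Of 45101 probe sets, 64 controls were left out, and of the rest 34945 had 1 gene symbol in the platform annotation, 932 several and 9160 none. The fit was limma 3.58.1 in R 4.3.3 (lmFit and eBayes) over 45037 probe sets, with a coefficient for each of 8 groups (7 residual and 6.21 prior degrees of freedom), 11 comparisons of group means, two-sided p-values and Benjamini-Hochberg adjustment over all probe sets within a comparison, and it was tested on simulated data. The human RUNX1 array entered no test. Lists used the brightest probe set of a gene. Members, lists and tests were chosen with earlier results of these data known. Named beside the members were, of each list, up to 3 genes past the threshold with the largest change for Runx1, Runx2 and Runx3 against vector and for induction beyond 4-OHT, and, for the 3 member probe sets of widest range, the 3 genes most like them. Alternatives were 1 probe set per gene, probe sets with a mean above 5, median centring, quantile normalization, a trended and robust eBayes, only the arrays compared, a replicate block, vector with 4-OHT as control and leaving out each array.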

Additional observations from a re-analysis of the deposited data

Results flagged for a closer look

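The difference with 4-OHT in Akr1c14 differed between RUNX1-ER cells and vector cells by 2.90 log2 units (SE 0.30, 95% interval 2.25 to 3.56). This was listed for closer reading because the interaction is large, but the family was chosen from these same arrays, so the value is a description and its test carries no evidence. Both induced arrays lay above both uninduced arrays, while the arrays of vector cells with and without 4-OHT overlapped. Between 15 alternatives the difference ran from 2.75 to 3.06. What lies behind it was not tested.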

How the results depend on the processing

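The values of Akr1c14, which served to choose the family, are a description under every alternative too. Akr1c14 passed the filter of a mean above 5 only through the groups where it read high. Its differences against vector cells ran from 3.33 to 3.82 for Runx2 and from 2.79 to 3.27 for Runx3. For Runx1 its difference, which never passed, ran from −0.23 to 0.41 and took its sign from whichever Runx1 array was kept. No value of a called member changed sign among 1448 alternative values, and 105 values that had not passed did. The count of member probe sets past the threshold moved in 1 comparison, induced RUNX1-ER against vector with 4-OHT, from 1 to 2 with probe sets of a mean above 5 (fewer tests) and from 1 to between 1 and 2 when 1 array was left out. With vector and 4-OHT as control, 2 genes of the prostaglandin F list were called for Runx1 in place of 1, and 4 of the steroid list for Runx3 in place of 3. With the replicate block, the member counts were unchanged. The probe sets called in all were 575 in place of 619 for Runx2 and 2205 in place of 2297 for Runx3 against vector. Deviations correlated above 0.1 in 4 of 21 pairs of groups (−0.18 to 0.31). This does not settle whether replicate numbers pair the arrays of some groups. Groups of 2 arrays limit all of this, and Akr1c14 rests on 1 probe set. A group left with 1 array was assumed to vary like the others.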

Other observations

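How often other genes separated the same arrays as Akr1c14 was counted after its values were seen, so its own place is a description. Of 18193 genes, 83 read higher on all 7 arrays of the Runx2, Runx3, human RUNX1 and induced RUNX1-ER groups than on all 8 others, and 158 read lower on all 7. Akr1c14 had a gap of 2.38 log2 units between the nearest arrays of the 2 sets, and no other of the 83 reached 1. The next gaps were those of Gm11476 (0.94), a predicted gene, Snai1 (0.90), a transcriptional repressor of epithelial genes, and Ccn5 (0.77).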
